A study of Mus musculus with 112 samples.

Results

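The proteasome genes of the mouse cerebral cortex were described across 7 strains and 2 diets. A gene was counted as a proteasome gene when the array annotation gave its probe set exactly 1 symbol of the form Psma, Psmb, Psmc, Psmd, Psme, Psmf or Psmg followed by a number, and where several probe sets qualified the brightest on average over the 112 arrays stood for the gene. This gave 48 genes out of 19938 with 1 symbol, on 54 of the 35556 probe sets. Psmc3ip and Psme3ip1 carry similar symbols but are no subunits and were left out, as was a probe set annotated to both Psme2b and Psme2. RNA came from the cortex of male mice of the inbred strains C3H/HeJ, C57BL6/J, 129S1/SvImJ, Balbc/J, DBA/2J and CBA/J, and of the first-generation hybrid of C57BL6/J with C3H/HeJ, called B6C3F1/J. Each strain contributed 8 mice on a control diet and 8 under calorie restriction (CR), with 1 mouse per array. All mice arrived at 6 weeks of age, lived singly and ate 84 kcal per week until 8 weeks, when the diets began, and tissue was taken at 22 weeks after an overnight fast. By the study's methods the amount of food was not equal in all strains: on either diet Balbc/J mice received more, and the restriction was tightened during the study for C57BL6/J and 129S1/SvImJ, so that strain and food intake cannot be told apart where strains are compared.

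The proteasome is the barrel-shaped protease that degrades proteins marked with ubiquitin. Its core is built of stacked rings of alpha and beta subunits, with the cutting sites on Psmb5 (chymotrypsin-like), Psmb6 (caspase-like) and Psmb7 (trypsin-like), and a cap made of a base with ATPases and a lid recognises, deubiquitinates and unfolds the substrate. Interferon lets cells replace the cutting subunits with Psmb8, Psmb9 and Psmb10 to form the immunoproteasome, whose peptides are loaded on MHC class I. In neurons the proteasome is known for protein turnover at synapses, and transcription of its genes is raised together by Nfe2l1 (also called NRF1), which binds antioxidant response elements.

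The 48 genes comprised 7 of the alpha ring, 4 structural and 3 catalytic genes of the beta ring, 3 immunoproteasome genes, 6 ATPases and 3 further genes of the base, 8 lid genes, 3 chaperones of cap assembly, 4 chaperones of core assembly and 5 activators or inhibitors. The remaining genes were Psma8, the alpha subunit of testis, and Psmb11, the beta subunit of thymic epithelium, with mean log2 signals of 5.51 and 6.76. Signals are log2 values made by the RMA procedure and are compared between mice for the same probe set, not between genes. A gene was called when its adjusted p (limma, Benjamini-Hochberg over all 19938 genes) was below 0.05.

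The 100 bases upstream of the gene start are shown for some of the genes named below. Psmb5 and Psmb6 were picked as the catalytic genes that carry the motif marked in capitals, so its presence in both is no result. They are also the catalytic genes called lower in the hybrid than in its parental strains. Psmb4 and Psmd6 are the genes called for CR. Bases were read from RefSeq (build GRCm38.p6), run 5′ to 3′ on the strand of the gene and end just before its start. Capitals mark TGACNNNGC, the core of an antioxidant response element, searched on both strands. The windows are chr14:54617996-54618095 on the minus strand for Psmb5, chr11:70525257-70525356 on the plus strand for Psmb6, chr3:94886959-94887058 on the minus strand for Psmb4 and chr14:14120946-14121045 on the minus strand for Psmd6.
Psmb5: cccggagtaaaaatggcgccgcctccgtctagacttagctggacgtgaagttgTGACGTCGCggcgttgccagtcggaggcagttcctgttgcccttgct
Psmb6: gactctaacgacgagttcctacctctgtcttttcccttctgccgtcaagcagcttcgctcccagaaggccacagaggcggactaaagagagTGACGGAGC
Psmb4: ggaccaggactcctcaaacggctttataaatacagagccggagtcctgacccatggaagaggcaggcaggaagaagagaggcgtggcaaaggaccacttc
Psmd6: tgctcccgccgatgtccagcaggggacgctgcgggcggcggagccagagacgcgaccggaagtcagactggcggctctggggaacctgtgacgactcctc
The motif lay 47 to 39 bases before the start of Psmb5 and 9 to 1 bases before that of Psmb6. A promoter window was found for 40 of the 48 genes (43 windows, since Psma6, Psmc2 and Psme2 have more than 1 start). Within 250 upstream bases TGACNNNGC occurred in 5 of the 43 windows, 11.6%, against 10.2% of 32851 windows of all genes, and the other carriers were Psmc6, Psmd9 and Psmd12. CCAAT, on both strands, occurred in 14 of the 43 windows, 32.6%, against 33.8% of all windows. These shares were near those of all genes. GAAA followed by any 2 bases and a second GAAA, an interferon-response type of motif, occurred in 3 windows, those of Psmb3, Psmd4 and Psmd9 (6.98%, against 2.98% of all windows). TTCNNNGAA, the core of a heat shock element, occurred in 2, those of Psmb8 and Psmg1 (4.65%, against 7.02%). Both were searched on both strands, and a match in letters is a description, not a bound site.

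Array medians lay between 7.14 and 7.26 log2 units. In 4 arrays the 12 marker genes of the cerebellum, a region outside the cortex, were high. The median of these markers was 4.33 log2 units above the rest of the group in replicate 6 of the C57BL6/J control mice and 4.17 in replicate 8 of the B6C3F1/J control mice, where markers of cortical excitatory neurons had median differences of -1.63 and -1.46. It was 1.43 above in replicate 8 of the DBA/2J control mice and 1.22 above in replicate 6 of the CBA/J mice on CR. The mean of the 14 core genes Psma1 to Psma7 and Psmb1 to Psmb7 differed from the rest of the group by -0.21, -0.15 and -0.16 log2 units in the 3 control arrays and by 0.046 in the CR array. The results below are given with all arrays and, where the call or the direction differed, without these. Defining markers of cortical excitatory neurons were present in all groups, with a mean over 9 genes between 9.92 and 10.27. In bulk tissue, fewer cells of a type and less RNA per cell cannot be told apart.

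With all arrays CR was called for few proteasome genes, and the estimated rises of those called were below 5%. Which genes were called depended on the arrays, strains and scaling used, as given below. Across the 7 strains 2 of the 48 genes were called, 4.17%, against 2.34% of all genes tested. Both were higher under CR (all genes called higher, 1.17%), and 0 were lower (1.17%). They were Psmb4, a structural subunit of the beta ring, and Psmd6, a subunit of the lid. Over all 48 genes 28 differences were positive and 20 negative (50.7% of all genes positive). The median difference was 0.0086 log2 units, against 0.00054 for all genes. An unadjusted p under 0.05 (limma) was reached by 14 of the 48 genes, a larger share than the 14.3% of all genes.

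Psmb4 was measured in every mouse. In 129S1/SvImJ its log2 signal ran from 10.54 through a median of 10.65 to 10.74 in control mice and from 10.58 through 10.75 to 10.89 in CR mice. In DBA/2J it ran from 10.56 through 10.76 to 10.85 in control mice and from 10.85 through 10.88 to 10.94 in CR mice. The DBA/2J groups were the only pair in which all CR mice lay above all control mice. Balbc/J control mice ran from 10.97 through 11.01 to 11.12 and CR mice from 11.00 through 11.12 to 11.17. For CBA/J the control mice ran from 10.77 through 10.88 to 10.92 and the CR mice from 10.81 through 10.92 to 11.01. C57BL6/J had 10.89, 11.08 and 11.15 as lowest, median and highest control values and 11.05, 11.09 and 11.17 as CR values. These groups overlapped, with the CR median above the control median in each. The hybrid B6C3F1/J had control values of 10.68, 10.78 and 10.81 and CR values of 10.66, 10.76 and 10.92, so that its medians lay close together. C3H/HeJ was the only strain whose mean was lower under CR, and its values went from 10.88, 10.99 and 11.09 in control to 10.80, 10.93 and 11.00 in CR mice. The mean of the strain means was 10.87 in control and 10.92 in CR mice, a difference of 0.055 log2 units (SE 0.014, adjusted p = 0.0121, limma) or 3.88%. The group means were higher under CR in 6 of 7 strains, with differences between -0.074 in C3H/HeJ and 0.16 in DBA/2J.

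Psmd6 varied more between mice. In Balbc/J control mice ran from 9.02 through 9.30 to 9.53 and CR mice from 9.35 through 9.51 to 9.58. In CBA/J control mice ran from 8.57 through 8.80 to 8.91 and CR mice from 8.82 through 8.88 to 9.06. In 129S1/SvImJ control mice ran from 8.36 through 8.59 to 8.87 and CR mice from 8.59 through 8.67 to 8.96. The CR median lay above the control median in each of these strains, and in none of them were the diets separate. In 129S1/SvImJ the highest CR mouse, at 8.96, stood apart from the next, at 8.74. DBA/2J had 8.66, 8.82 and 8.99 in control and 8.82, 8.90 and 9.0 in CR mice. C57BL6/J had 9.36, 9.41 and 9.61 in control and 9.32, 9.47 and 9.56 in CR mice, and the hybrid had 9.0, 9.07 and 9.20 against 8.99, 9.09 and 9.19. These last groups covered almost the same range. C3H/HeJ was again the exception, with 8.92, 9.02 and 9.09 in control and 8.76, 8.96 and 9.21 in CR mice. The difference across strains was 0.068 log2 units (SE 0.020, adjusted p = 0.045, limma) or 4.85%, higher in 6 of 7 strains, from -0.063 in C3H/HeJ to 0.17 in Balbc/J.

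The calls for CR depended on which strains were included. Psmb4 lost its call when 129S1/SvImJ, Balbc/J, CBA/J or DBA/2J was left out (adjusted p between 0.0534 and 0.238, limma) and Psmd6 lost its call in the same cases (0.144 to 0.249). Psmd6 also lost it when mice of the same strain and replicate number were treated as a block (adjusted p = 0.0593) and without B6C3F1/J control replicate 8 (0.0517), while Psmb4 kept its call without either of the arrays highest in cerebellar genes and without all 4. Without C3H/HeJ, the strain of opposite sign, 6 genes were called higher: Psma2, Psma6, Psmb2, Psmb4, Psmd1 and Psmd6. Without replicate 6 of the C57BL6/J control mice 4 genes were called: Psmb2, Psmb4 and Psmd6 higher and Psmd4 lower.

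A few genes lay just outside the threshold. Psmb2, another structural gene of the beta ring, differed by 0.052 (SE 0.016, adjusted p = 0.0564), and Psmd14, the deubiquitinase of the lid, by 0.062 (SE 0.019, adjusted p = 0.0584) with a positive difference in 7 of 7 strains. Without the 4 cerebellar arrays Psmb2 was called (adjusted p = 0.0466) and so were Psmd4, a ubiquitin receptor of the base, and Psmd3, a lid subunit, both lower. With all arrays Psmd4 differed by -0.047 (SE 0.015, adjusted p = 0.0756) and Psmd3 by -0.039 (SE 0.017, adjusted p = 0.248), each negative in 6 of 7 strains. By group, 4 of 4 structural beta genes had positive differences with a median of 0.041, the 7 alpha genes split into 3 positive and 4 negative, the 6 ATPases into 3 and 3, and the 8 lid genes into 4 and 4. The catalytic genes did not share a sign, since Psmb5 differed by 0.021 (SE 0.020), Psmb7 by 0.028 (SE 0.019) and Psmb6 by -0.045 (SE 0.022, adjusted p = 0.308). Differences of the immunoproteasome genes Psmb8, Psmb9 and Psmb10 were 0.0093, 0.0028 and -0.0034, each with an SE of 0.023 to 0.032. The activators and inhibitor differed by between -0.037 for Psme2 and 0.022 for Psme3, and the chaperones of core assembly by between -0.018 for Psmg1 and 0.019 for Psmg4, with 0 of these 9 genes called.

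**Figure D1:**
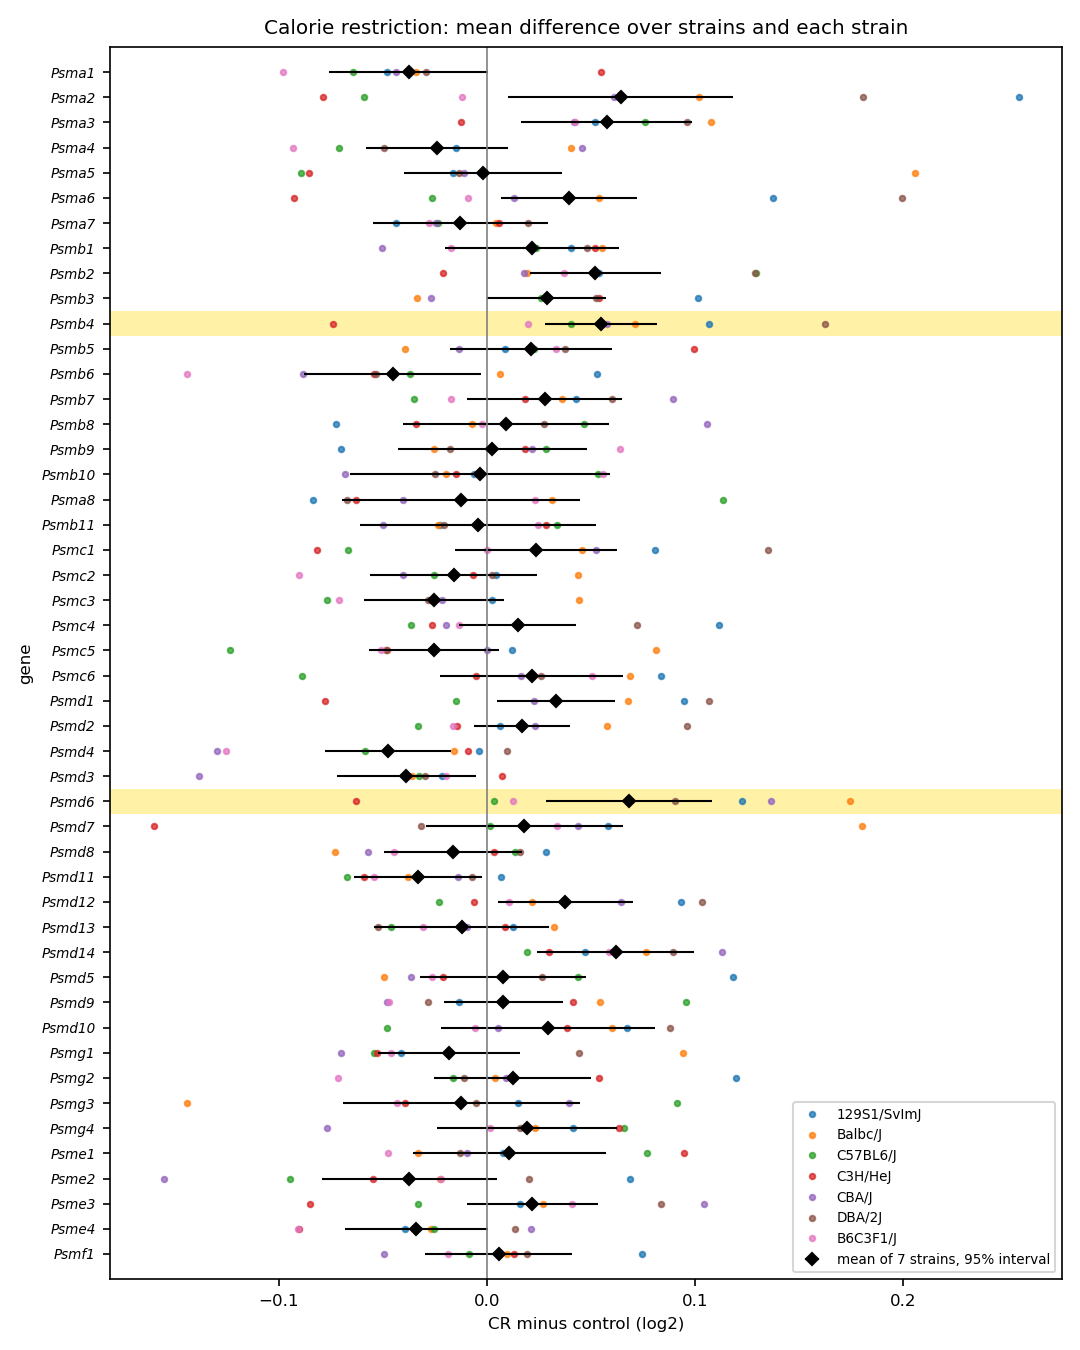
Difference between CR and control mice (log2, horizontal axis) for each of the 48 genes (vertical axis), with the mean of the 7 strains as a black diamond with its 95% interval and each strain as a coloured point. The shaded genes Psmb4 and Psmd6, at 0.055 and 0.068, are the 2 genes called, and the C3H/HeJ point lies below 0 for both.

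Within single strains 0 of the 48 genes were called in any of the 7 strains, against 0.00502% of all genes in 129S1/SvImJ, 0.0853% in C57BL6/J, 0.1% in CBA/J and 0% in the other 4 strains. An unadjusted p under 0.05 (limma) was reached by 10 of the 48 genes in 129S1/SvImJ (all genes 6.24%), 9 in DBA/2J (5.66%), 6 in CBA/J (7.87%) and 5 in C3H/HeJ (2.64%). It was reached by 4 in Balbc/J (6.65%), 3 in C57BL6/J (10.6%) and 3 in B6C3F1/J (7.63%). The smallest p-values fell on genes of the alpha ring and on Psmb4: Psma6, an alpha subunit, differed by 0.20 in DBA/2J and by 0.14 in 129S1/SvImJ, Psma2 by 0.26 in 129S1/SvImJ and Psma5 by 0.21 in Balbc/J, while Psmb4 differed by 0.16 in DBA/2J (adjusted p between 0.143 and 0.431, limma). The t-test of the study's methods, which the study ran on the raw scale, was run here on log2 values. At an unadjusted p under 0.01 it counted 5 genes, all higher, in both 129S1/SvImJ (10.4% of the 48, all genes 1.77%) and DBA/2J (all genes 1.69%). In CBA/J it counted 3, with 1 higher and 2 lower (3.64%). It counted 1 gene in Balbc/J, which was higher (1.89%), 1 in B6C3F1/J, which was lower (0.592%), and 0 in C57BL6/J (2.07%) and C3H/HeJ (0.572%). In at least 3 strains it was passed by 0 of the 48 genes and by 0.13% of all genes.

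The direction of the small differences was not shared by all strains. Of the 48 differences 34 were positive in 129S1/SvImJ (48.4% of all genes), 32 in Balbc/J (46.9%) and 30 in DBA/2J (51.4%). Positive differences numbered 23 in CBA/J (48.5%), 20 in C57BL6/J (52.2%) and 18 each in C3H/HeJ (50.6%) and B6C3F1/J (51.9%). Core genes varied together within groups, as given below, so the signs are not 48 separate observations. All 6 ATPases of the base had positive differences in 129S1/SvImJ and Balbc/J (medians 0.047 and 0.045) and negative ones in C57BL6/J and C3H/HeJ (medians -0.072 and -0.027). The test of the interaction of strain and diet called 0 of the 48 genes (all genes 0.0401%), with 12 at an unadjusted p under 0.05 (all genes 6.11%). The genes nearest to a call were Psma6 (F = 5.27, adjusted p = 0.129, limma) and Psmb4 (F = 4.21, adjusted p = 0.283), so that a difference in response between strains was not shown for any proteasome gene at this number of arrays.

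Strain, in contrast, separated nearly all of the genes. Among control mice 43 of the 48 were called (89.6%, against 65.4% of all genes), and among CR mice 41 (85.4%, against 56.8%). All genes of the alpha ring, both kinds of beta ring genes, the base, the lid and the cap chaperones were called in control mice. The exceptions were Psmb8 and Psmb9 of the immunoproteasome, the thymic Psmb11, the inhibitor Psmf1 and the chaperone Psmg3. Of these, Psmb8, Psmg3 and Psmb11 had low mean signals, at percentiles 24.7, 27.5 and 34.1 of all genes. Psmb9 and Psmf1 lay at 56.4 and 77.3. The range between the highest and the lowest strain mean had a median of 0.33 log2 units over the 48 genes, against 0.27 over all genes and 0.30 over genes with a mean signal above that of the median gene.

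129S1/SvImJ stood at the low end. It had the lowest mean of the 7 strains for 24 of the 48 genes in control mice, 50% against 21.8% of all genes and 36.4% of the brighter genes just named, and for 23 genes in CR mice, 47.9% against 21.3% and 34%. In control mice C57BL6/J was highest for 20 genes (41.7%, against 17.6% of all and 26.9% of brighter genes) and Balbc/J for 13 (27.1%, against 14.1% and 20.9%). In CR mice C57BL6/J was highest for 15 (31.2%, against 12.5% and 18.6%) and Balbc/J for 16 (33.3%, against 16.8% and 25.8%). Against C57BL6/J, 129S1/SvImJ was called lower for 31 genes (all genes 22.8%) and higher for 4 (26.3%), with a median difference of -0.22 over the 48 genes, -0.081 over the brighter genes and 0.060 over all genes. It was called lower than Balbc/J for 26 genes (22.3% of all genes) and higher for 2 (16%), lower than C3H/HeJ for 30 (18.4%) and higher for 1 (9.91%), and lower than CBA/J for 24 (15.7%) and higher for 3 (8.46%). It was called lower than DBA/2J for 19 (15%) and higher for 0 (9.38%), and lower than the hybrid for 15 (13.8%) and higher for 1 (7.33%). The count of genes lowest in 129S1/SvImJ fell to 17 in control mice after a further quantile normalization of the gene table, and the median difference from C57BL6/J was then -0.14. Strain and any batch of processing cannot be told apart, since the labels give no batch.

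The order of strains was much alike in the 2 sets of mice on different diets. The same strain was lowest in both diets for 36 of the 48 genes (52.3% of all genes) and highest for 29 (50.4%). The correlation of the 7 strain means between diets, over strains that share their probe set and genotype, had a median of 0.91 over the 48 genes and 0.77 over all genes. It lay above 0.9 for 26 genes and was lowest for Psmb8 at 0.30.

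**Figure D2:**
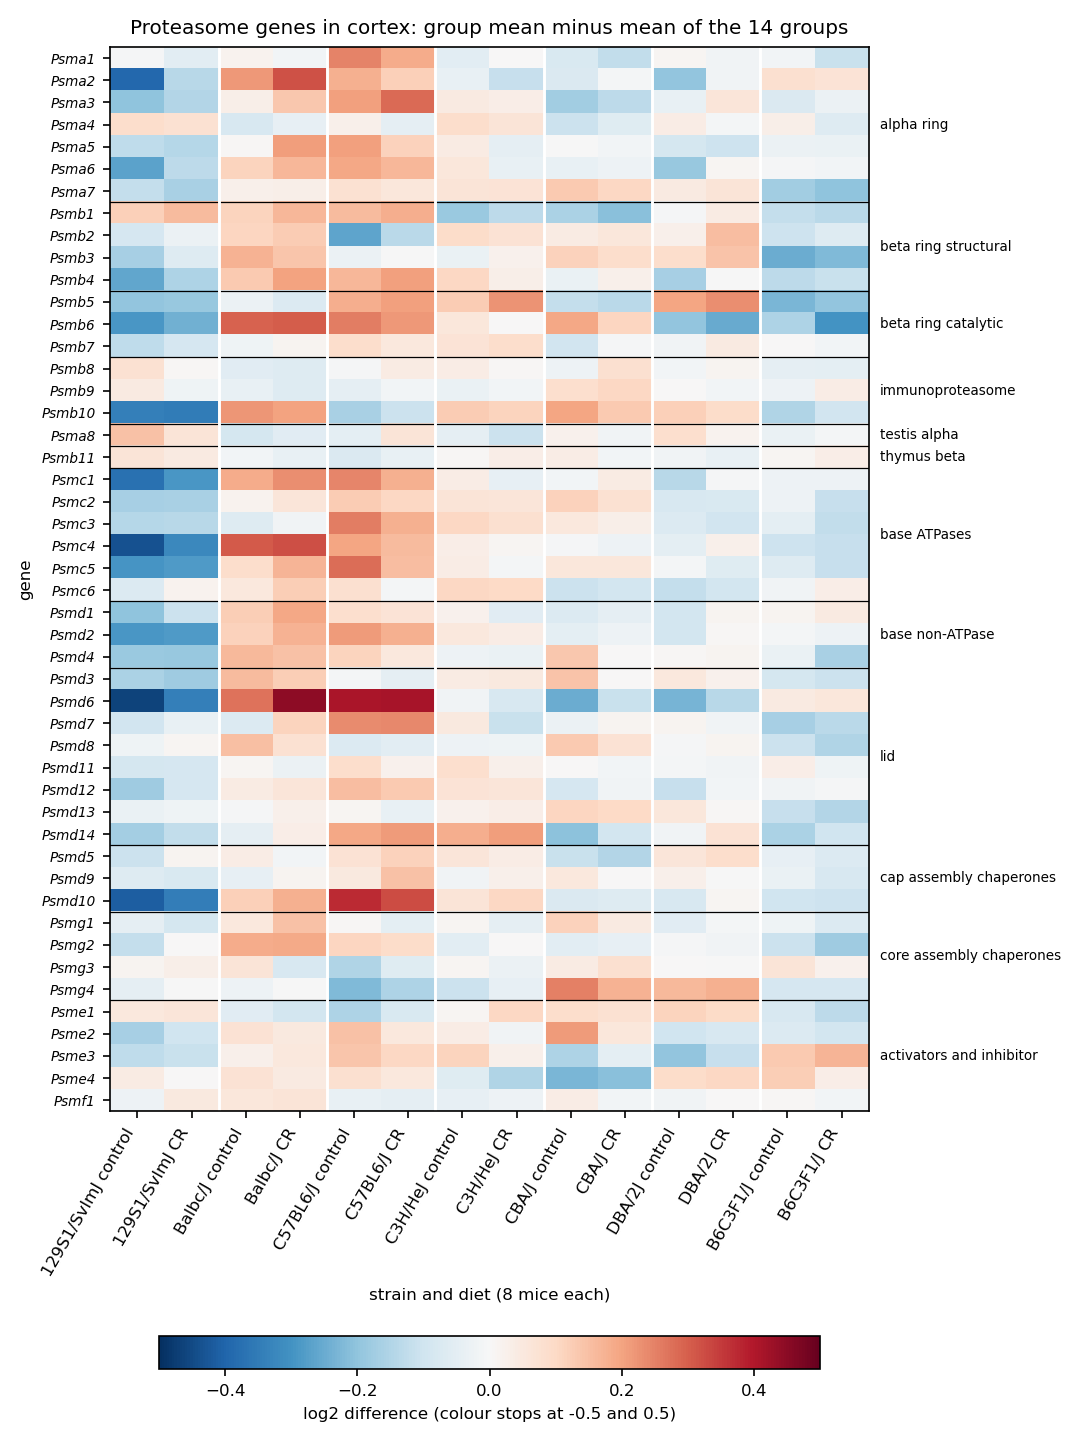
Mean log2 signal of each of the 48 genes (rows, grouped by role) in each of the 14 strain and diet groups of 8 mice (columns), minus the gene's mean over the 14 groups, in colour from -0.5 (blue) to 0.5 (red). The 129S1/SvImJ columns are mostly blue, the Balbc/J and C57BL6/J columns mostly red, and the control and CR columns of a strain resemble each other more than columns of different strains.

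Psmc4, an ATPase of the base, showed the clearest separation. In control mice of 129S1/SvImJ its log2 signal ran from 8.91 through a median of 9.05 to 9.17. The hybrid ran from 9.30 through 9.39 to 9.48, DBA/2J from 9.26 through 9.45 to 9.56 and CBA/J from 9.34 through 9.49 to 9.59. C3H/HeJ ran from 9.43 through 9.51 to 9.61, C57BL6/J from 9.52 through 9.69 to 9.83 and Balbc/J from 9.65 through 9.82 to 9.87. No 129S1/SvImJ control mouse reached the lowest control mouse of any other strain. The range of strain means was 0.74, a ratio of 1.67 (F = 78.2, adjusted p = 1.98e-33, limma). In the order of means the neighbours hybrid and DBA/2J, DBA/2J and CBA/J, and CBA/J and C3H/HeJ did not pass the test of their difference (adjusted p = 0.305, 0.485 and 0.477), while C3H/HeJ and C57BL6/J (0.000524), and C57BL6/J and Balbc/J (0.0199) did. Other ATPases were also lowest in 129S1/SvImJ: Psmc1 had a range of 0.62, Psmc5 of 0.57 and Psmc3 of 0.40, with C57BL6/J highest.

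Psmd6, given by mouse above, had the largest range of the 48 genes, 0.87 or a ratio of 1.83 (F = 66.6, adjusted p = 9.15e-31). Its control means rose from 8.57 in 129S1/SvImJ to 8.79 and 8.81 in CBA/J and DBA/2J, 9.02 and 9.08 in C3H/HeJ and the hybrid, and 9.31 and 9.45 in Balbc/J and C57BL6/J. CBA/J and DBA/2J (adjusted p = 0.848), C3H/HeJ and the hybrid (0.432), and Balbc/J and C57BL6/J (0.052) did not pass the test of their difference. The chaperone Psmd10, also known as gankyrin, which guides assembly of the base, had the next largest range, 0.79 from 8.22 in 129S1/SvImJ to 9.01 in C57BL6/J (adjusted p = 1.87e-16). Psmd2, the scaffold of the base, ranged over 0.50 between the same strains (adjusted p = 1.19e-27), and its other probe set gave a range of 0.50 too.

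Catalytic subunits of the core did not follow 1 order. Psmb6 had control values from 8.77 through 8.94 to 9.06 in 129S1/SvImJ and from 8.86 through 9.05 to 9.16 in DBA/2J. In Balbc/J it ran from 9.27 through 9.54 to 9.66. The 2 lower strains lay fully below Balbc/J. The range of means was 0.59 (adjusted p = 6.58e-21), and 129S1/SvImJ and DBA/2J did not pass the test of their difference (adjusted p = 0.236). Psmb5 was instead highest in DBA/2J, at a mean of 11.17, and lowest in the hybrid, at 10.75 (range 0.42, adjusted p = 4.17e-16). Psmb7 had a range of 0.21 (adjusted p = 0.000444) between 129S1/SvImJ and C57BL6/J. Among alpha genes Psma2 ranged over 0.61 from 129S1/SvImJ to Balbc/J and Psma6 over 0.46 from 129S1/SvImJ to C57BL6/J (adjusted p = 5.19e-13 and 5.3e-18). Psmb4 ranged over 0.42 between the latter strains (adjusted p = 1.58e-23).

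The immunoproteasome genes split. Psmb10 was low in 129S1/SvImJ, where control mice ran from 8.19 through a median of 8.43 to 8.59. Control mice of Balbc/J ran from 8.65 through 9.0 to 9.21 and those of CBA/J from 8.75 through 8.93 to 9.28. In C57BL6/J they ran from 7.81 through 8.69 to 8.89, and in the hybrid from 8.05 through 8.68 to 8.87. The lowest mice of C57BL6/J and of the hybrid were the cerebellar arrays named above, whose part in these values was not tested. All Balbc/J and CBA/J control mice lay above all 129S1/SvImJ control mice. The range of means was 0.56, a ratio of 1.48 (adjusted p = 2.05e-10). For Psmb9 and Psmb8, which lie side by side with the peptide transporter gene Tap1 between them, the group means covered 7.80 to 7.97 and 6.23 to 6.37 over all 14 groups. Their strain ranges among control mice were 0.13 each (adjusted p = 0.312 and 0.451) and did not pass the test against the spread between mice. Microglia are the brain cells that carry much of the immunoproteasome. All 11 measured microglial markers were called for strain in control mice (65.4% of all genes). Group means of the list lay between 7.84 in CBA/J control and 8.11 in C57BL6/J CR mice. Markers of blood T and B cells had group means between 6.33 and 6.55. The part of these cells in the values of Psmb10 was not tested.

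Activators were called one by one rather than as a group. Psme1 and Psme2, which form the interferon-inducible PA28 activator and are separated by 1 gene in the genome, were lowest in different strains: Psme1 in C57BL6/J and Psme2 in 129S1/SvImJ (ranges 0.27 and 0.38, adjusted p = 0.000545 and 2.26e-09). Psme3, the nuclear activator, ranged over 0.34 from DBA/2J to C57BL6/J, and Psme4, the PA200 activator, over 0.35 from CBA/J to the hybrid (adjusted p = 2.2e-16 and 7.51e-11). The inhibitor Psmf1 had the smallest range of the 48 genes, 0.097 (adjusted p = 0.326). Among chaperones of core assembly Psmg4 ranged over 0.47 from C57BL6/J, its lowest strain, to CBA/J (adjusted p = 1.28e-11), and Psmg2 over 0.30 (adjusted p = 6.72e-08). Psmg1 ranged over 0.17 (adjusted p = 0.00818) and Psmg3 over 0.21, which was not called (adjusted p = 0.124).

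**Figure D3:**
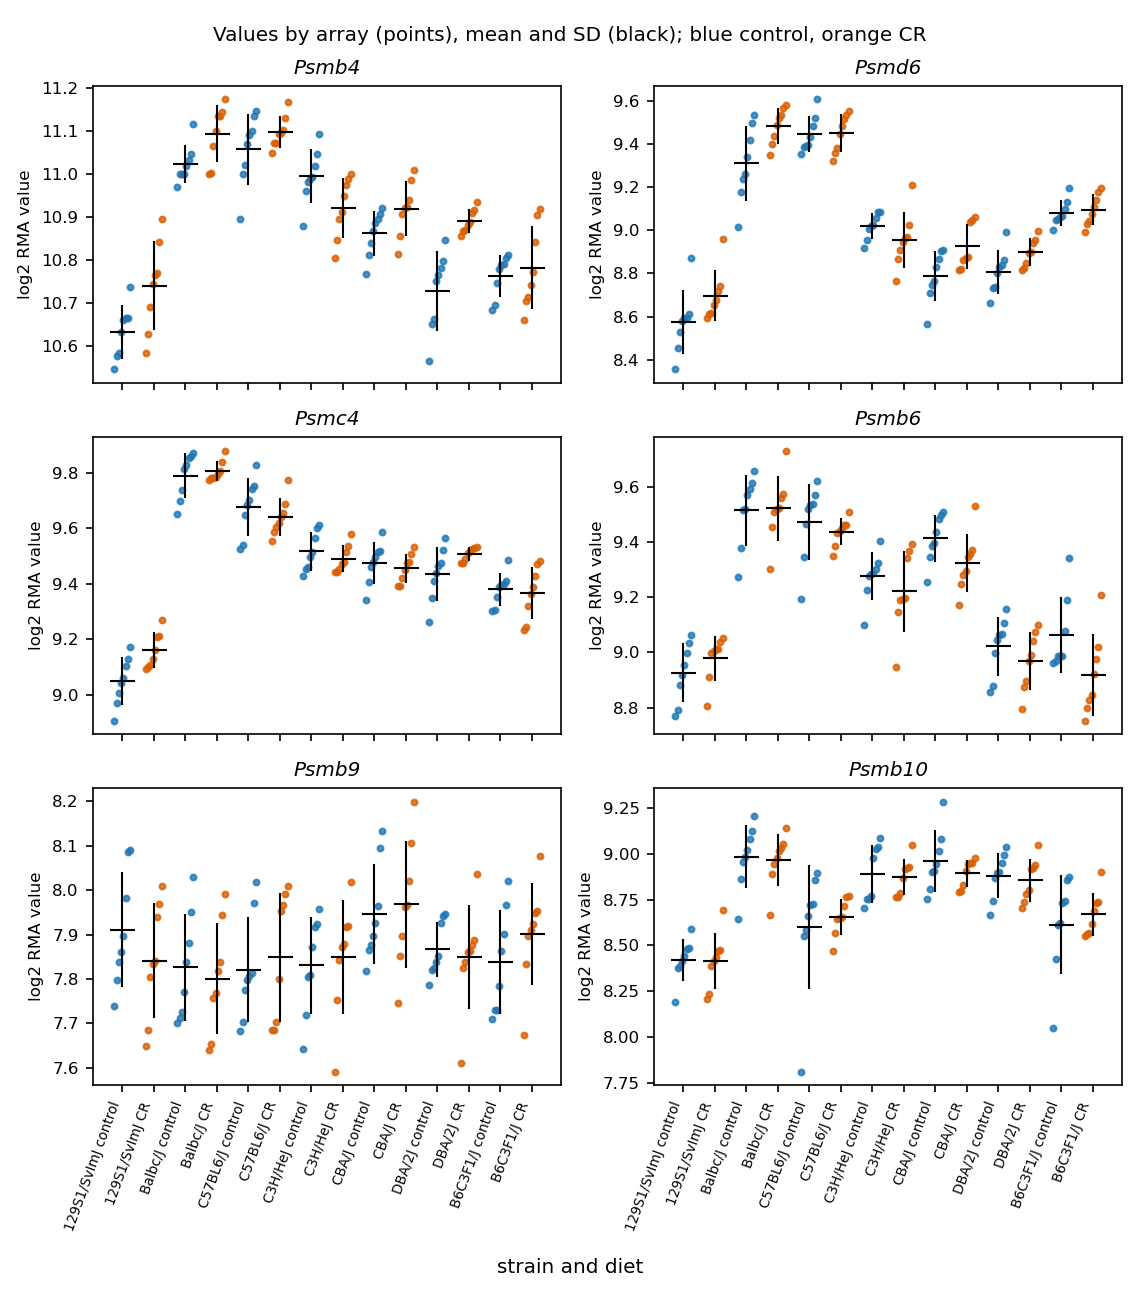
Log2 signal (vertical axis) of 6 genes in every mouse of the 14 strain and diet groups (horizontal axis), control in blue and CR in orange, with the group mean and SD in black. Psmc4 and Psmd6 are lowest in 129S1/SvImJ, Psmb9 covers a like range in all groups, and single low control mice of C57BL6/J (7.81) and B6C3F1/J (8.05) stand out for Psmb10.

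The hybrid was set against the mean of its parental strains. B6C3F1/J had lower signals of many core, base and lid genes than that mean, in both diets. Among control mice 22 of the 48 genes were called, 45.8% against 16.2% of all genes, with 21 lower (all genes 9.77%) and 1 higher (6.39%). Among CR mice 25 were called, 52.1% against 18%, with 24 lower (10.5%) and 1 higher (7.46%). The median difference was -0.11 in each diet, against 0.015 and 0.018 over all genes and -0.034 and -0.027 over the brighter genes. No mouse is in both sets, so the diets are separate measurements of the same strains. Strain and any batch of processing cannot be told apart in either diet, since the labels give no batch. In both diets 16 genes were called lower (6.56% of all genes). These 16 were Psma3 and Psma7 of the alpha ring, Psmb3, Psmb4, Psmb5 and Psmb6 of the beta ring, the ATPases Psmc3, Psmc4 and Psmc5, Psmd2 of the base, the lid genes Psmd7, Psmd12, Psmd13 and Psmd14, and the chaperones Psmd10 and Psmg2.

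Psmb5 showed the largest difference of the 48 genes. Under CR its log2 signal ran from 10.66 through 10.80 to 10.86 in the hybrid, from 11.12 through 11.18 to 11.23 in C57BL6/J and from 11.06 through 11.20 to 11.33 in C3H/HeJ. Every hybrid mouse on CR lay below every parental mouse on CR. In control mice it ran from 10.45 through 10.76 to 10.91 in the hybrid, from 10.72 through 11.22 to 11.31 in C57BL6/J and from 10.79 through 11.15 to 11.26 in C3H/HeJ, so that the groups overlapped. The lowest C57BL6/J value was that of replicate 6. The hybrid differed from the parental mean by -0.38 in control mice (SE 0.045, adjusted p = 2.28e-10) and -0.41 in CR mice (SE 0.045, adjusted p = 6.74e-12), which under CR is a change of -24.8% in signal.

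Psmb6 was next under CR. The hybrid ran from 8.75 through 8.88 to 9.21, C57BL6/J from 9.35 through 9.45 to 9.51 and C3H/HeJ from 8.95 through 9.19 to 9.39. The hybrid lay fully below C57BL6/J and overlapped C3H/HeJ. Its difference from the parental mean was -0.31 in control mice (SE 0.049, adjusted p = 1.17e-06) and -0.41 in CR mice (SE 0.049, adjusted p = 2.06e-10). The third catalytic gene, Psmb7, differed by -0.078 and -0.086 and was not called (adjusted p = 0.214 and 0.163). Psmb4 differed by -0.26 and -0.23, Psmd14 by -0.34 and -0.31, Psmd10 by -0.32 in both, Psmd7 by -0.31 and -0.20, and Psma7 by -0.24 and -0.26.

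Calls were spread over the rings, the base and the lid. In control and CR mice respectively, 4 and 3 of 7 alpha genes, 2 and 3 of 4 structural beta genes, 4 and 4 of 6 ATPases and 5 and 6 of 8 lid genes were called lower. None of the 3 immunoproteasome genes was called in either diet, with Psmb10 at -0.13 and -0.096 (adjusted p = 0.207 and 0.396), Psmb8 at -0.062 and -0.071 and Psmb9 at 0.012 and 0.053. Without C57BL6/J control replicate 6 Psmb10 was called lower in control mice. The genes called higher were activators: Psme4 in control mice (0.12, SE 0.040, adjusted p = 0.0326) and Psme3 in CR mice (0.11, SE 0.036, adjusted p = 0.027). Psme4 was no longer called without B6C3F1/J control replicate 8. The core chaperone Psmg2 was lower in both diets (-0.13 and -0.22), while Psmg1, Psmg3, Psmg4 and the inhibitor Psmf1 were not called in either.

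The mean of the hybrid lay below both parental means, rather than between them, for 32 genes in control mice (66.7%, all genes 29.1%, brighter genes 42.2%) and 31 in CR mice (64.6%, all genes 29.4%, brighter genes 42.3%), and for 27 in both diets (19.6% of all genes). The hybrid was called lower than each parent taken singly for 9 genes in control mice (all genes 2.54%): Psma7, Psmb3, Psmb4, Psmb5, Psmb6, Psmc3, Psmc4, Psmd7 and Psmd14. In CR mice it was called lower than each parent for 12 genes (all genes 3.7%), which held 8 of these 9, the exception being Psmd7, and further Psmc2, Psmd4, Psmd10 and Psmg2. For 0 genes was it called higher than each parent, and the share over all genes was not computed for this direction. Cerebellar markers had a median difference from the parental mean of 0.42 in control mice and 0.12 in CR mice. In control mice 0 of 12 were called (16.2% of all genes), and 3 of 7 endothelial markers were called lower (9.77% of all genes). The part of either in the hybrid's values was not tested. Without the control arrays highest in these markers 22 genes were called in control mice, all lower.

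**Figure D4:**
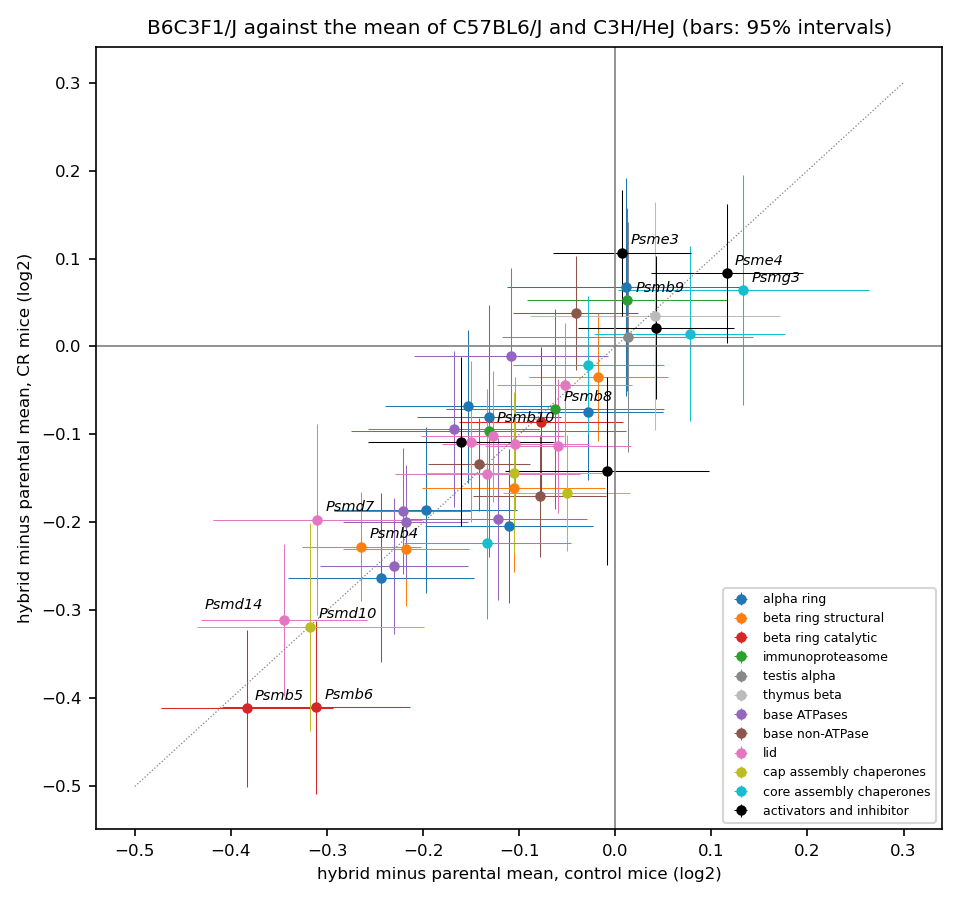
Difference between the hybrid B6C3F1/J and the mean of C57BL6/J and C3H/HeJ (log2) in control mice (horizontal axis) and CR mice (vertical axis) for the 48 genes, coloured by role, with 95% intervals and a dotted line of equal values. Most points lie below 0 on both axes, with Psmb5 at -0.38 and -0.41 farthest out and Psme3 and Psme4 among those above 0 on both.

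Genes that work with the proteasome were read from lists chosen with earlier results of these data known. Their counts beside the shares of all genes are therefore a description. Of 37 listed ubiquitin and proteasome partners 24 were measured. Across strains 1 was called for CR (2.34% of all genes). It was Zfand2a, a stress-induced proteasome partner, which was higher by 0.12 (SE 0.022, adjusted p = 0.000206, limma). The transcription factor Nfe2l1 differed by 0.0025 (adjusted p = 0.969) and its relative Nfe2l2 by 0.081 (adjusted p = 0.0596). Strain was called for 21 of the 24 in control mice (65.4% of all genes). In the hybrid 7 were called lower and 0 higher in control mice (9.77% and 6.39% of all genes). In CR mice 5 were called lower and 1 higher (10.5% and 7.46%). Vcp, the unfoldase that feeds the proteasome, differed by -0.17 and -0.23 (adjusted p = 1.04e-05 and 4.51e-09), its cofactor Ufd1 by -0.18 and -0.24, and the core assembly factor Pomp by -0.17 and -0.13 (adjusted p = 0.0147 and 0.0722). The 15 measured of 18 genes of antigen processing and interferon response included 4 called higher under CR (1.17% of all genes). These were Ifit3, by 0.23, and the endoplasmic chaperones Pdia3, Calr and Canx, by 0.10, 0.058 and 0.055. Strain was called for 14 of the 15 in control mice (65.4% of all genes), and the light chain gene B2m had the widest range, 1.08 from CBA/J to C57BL6/J. Tap1, next to Psmb9, differed by -0.0033 under CR (adjusted p = 0.972). In the hybrid Irgm1 and Gbp3 were called lower in control mice and Ifit3 in CR mice.

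Within groups, mice with a high signal for 1 core gene tended to have a high signal for others. Each gene's deviation from its group mean over the 112 arrays was correlated with the mean deviation of the 14 core genes Psma1 to Psma7 and Psmb1 to Psmb7, the gene itself left out. These points share arrays and normalization, so the values are a description. For core genes r lay between 0.29 (Psmb2) and 0.57 (Psma7), with a median of 0.49, while the median over all genes was -0.026. The core genes are bright, at percentiles 68.4 (Psma5) to 98.7 (Psmb3), and a median over the brighter genes alone was not computed. Genes of the base and lid ran from 0.21 for the lid gene Psmd8 to 0.65 for the ATPase Psmc6. The cap chaperones were far apart, with r of 0.72 for Psmd5, 0.68 for Psmd10 and 0.011 for Psmd9. Psmb10 had an r of 0.43. The other immunoproteasome genes ran the other way, Psmb9 at -0.53 and Psmb8 at -0.42, as did Psmb11 (-0.61), Psmg3 (-0.51) and the testis gene Psma8 (-0.28). Most of these had low signals. The mean signals of Psma8, Psmb8, Psmg3 and Psmb11 lay at percentiles 12.4, 24.7, 27.5 and 34.1 of all genes, and that of Psmb9 at 56.4. The part of low signal in their r was not tested. The mean deviation of the core genes correlated with that of the cerebellar markers at -0.48 and with the spread of relative log expression of the array at -0.23, and the part of either in these values was not tested. The genes outside the family closest to the core were Rab3gap1, Kpna2, Plpp1 and Ufsp2, with r between 0.76 and 0.78.

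**Figure D5:**
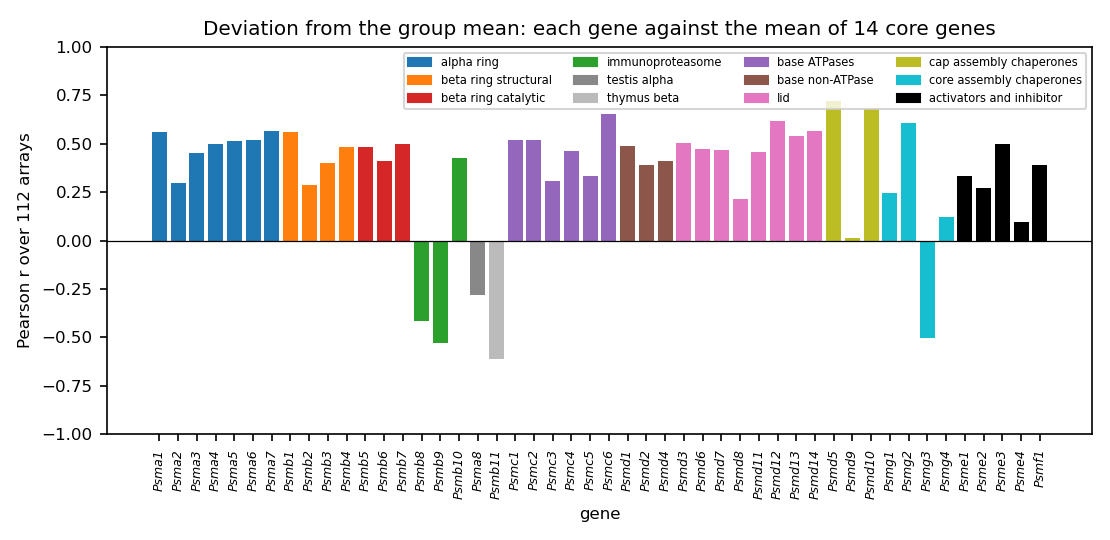
Pearson r over the 112 arrays (vertical axis) between each gene's deviation from its group mean and the mean deviation of the 14 core genes, the gene itself left out, for the 48 genes (horizontal axis, coloured by role). Alpha and beta ring genes lie between 0.29 and 0.57, and Psmb8, Psmb9, Psma8, Psmb11 and Psmg3 lie below 0.

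Other probe sets were on the array for 5 of the 48 genes. For Psma3, Psmb3, Psmc1 and Psmd2 the means of the 14 groups on the other probe sets correlated with those used at 0.96 to 0.997 and named the same lowest and highest strains. For Psma5 r was 0.80 and the lowest strain was the hybrid on the other probe set and 129S1/SvImJ on the one used. The remaining 43 genes had 1 probe set each. The part of sequence differences between strains under the probes was not tested.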

How the data were processed

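Each of 112 mice gave cortical RNA for 1 Affymetrix Mouse Gene ST array. The authors deposited log2 values from Expression Console (gene-level RMA-Sketch, versions not stated). Because RMA equalises the distributions of arrays, a change common to all genes is invisible. Of 35556 probe sets 21789 had exactly 1 symbol, and the brightest per gene left 19938 genes, with no filter on low signal. Means of the 14 groups were fitted with limma 3.58.1 under R 4.3.3 (lmFit, eBayes, two-sided, with 98 residual and 4.62 prior degrees of freedom). CR was averaged over the 7 within-strain differences. Strain and interaction used moderated F tests, and the 21 control pairs were adjusted over genes and pairs together. The number of arrays limits the precision (median SE of a CR difference 0.019 over the 48 genes). Each labelled mouse was a replicate. Scripts were tested on simulated data. Members, lists and tests were chosen with earlier results of these data known, and tests of the hybrid against each parent were added after the data were seen.

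Named were genes called for CR, interaction or the hybrid (up to 12 each by p), the 12 of widest control range, the 2 of smallest p where none was called, all catalytic, immunoproteasome, activator, inhibitor and core chaperone genes, and 4 outside genes closest to the core. Others were chosen after their values were seen. Alternatives were other scalings, a brightness limit, robust fits, array weights, replicate blocks, a quality covariate, arrays or strains left out, single probe sets, a 2-way model, a 1.1-fold test and the methods' t-test.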

Additional observations from a re-analysis of the deposited data

Results flagged for a closer look

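For Psmb4, Psmb5, Psmb6, Psmb8, Psmb9, Psmb10, Psmc4 and Psmd6 over the 14 groups, 112 groups of 8 mice were examined for a single mouse far from the others, and 3 were found; chance alone marks about 1 in 20 such groups. Psmd6 in 129S1/SvImJ CR replicate 3 was 8.96, above the next mouse at 8.74. Psmb5 in C57BL6/J control replicate 6 was 10.72, below the next at 11.12. Psmb10 in the same array was 7.81, below the next at 8.55. C57BL6/J control replicate 6 is the array with the highest cerebellar markers, and their part in its values was not tested.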

How the results depend on the processing

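No called difference reversed under the alternatives run for it, while CR differences across strains that were not called changed sign under at least 1 alternative for Psma5, Psmb8, Psmb9, Psmb10, Psmb11, Psmc4, Psmd5, Psmd7, Psmd9, Psme1, Psmf1, Psmg2 and Psmg3. The counts for strain and for the hybrid stayed within 1.5 times those reported: 40 to 43 and 40 to 41 genes for strain in control and CR mice, 19 to 29 and 24 to 27 for the hybrid. The low and the high count for the hybrid in control mice came without B6C3F1/J control replicate 8 and without C57BL6/J control replicate 6, alternatives chosen after seeing the data. The 2 calls for CR across strains were the least stable. The count was 1 with each array centred on its median, with a plain 2-way model and without B6C3F1/J control replicate 8, and 4 without C57BL6/J control replicate 6 or without both arrays highest in cerebellar genes. It was 5 after quantile normalization, with only genes above the median gene and without the 4 cerebellar arrays, and 6 with array weights and without C3H/HeJ. It was 0 without 129S1/SvImJ, Balbc/J, CBA/J or DBA/2J, in the test against a 1.1-fold change (0 of all genes), and by the methods' t-test in at least 3 strains (0.13% of all genes). Counts over all genes moved too, from 467 to 658 after quantile normalization, 875 without the 4 arrays, 1193 with array weights, 504 without C3H/HeJ and between 175 and 306 without each of the strains that left 0. The causes were not tested. Psmd6 also missed the threshold with array quality (the width of relative log expression) as a covariate (adjusted p = 0.0754, limma). The interaction count was 1 (Psma6) with only genes above the median gene and with array weights, and array weights gave 1 gene in Balbc/J, 1 in C57BL6/J and 2 in DBA/2J. The methods' t-test at an unadjusted p under 0.01 counted 5 genes in 129S1/SvImJ, 1 in Balbc/J, 3 in CBA/J (4 on linear values), 5 in DBA/2J and 1 in B6C3F1/J, and 0 in each strain after Benjamini-Hochberg adjustment.

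With a replicate block inside each strain 2 genes were called for CR, Psmb2 and Psmb4. The numbers were not taken to pair the mice, since 31 of 56 same-numbered pairs correlated above 0.1 and 12 of 56 correlated best with their own number.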
